A study of Mus musculus with 367 samples.

Results

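The 8 genes described here encode the adaptors Tyrobp and Fcer1g, the Fc gamma receptors Fcgr1, Fcgr2b, Fcgr3 and Fcgr4, the receptor Trem2 and the kinase Syk. They were listed by name, as members of the signalling system that runs through the immunoreceptor tyrosine-based activation motif (ITAM), and are 8 of the 50600 genes in the deposited tables. Their RNA was measured in single cells of healing mouse skin by full-length sequencing. All cells came from Sm22-Cre;tdTomato mice of mixed background that received large excisional back wounds at 3 to 8 weeks of age per the labels (6 to 8 weeks per the methods), and wound tissue was taken at post-wounding day (PWD) 12, 15 or 21. Sm22-Cre drives Cre recombinase from the promoter of Tagln, a smooth muscle and myofibroblast gene, and tdTomato then marks a cell and its descendants for good. Viable tdTomato-high cells were sorted and caught singly on a Fluidigm C1 chip in 7 captures, 3 at day 12, 2 at day 15 and 2 at day 21, and there was no unwounded or untreated group. Each time point pooled the tissue of 2 to 3 animals. No source used here says which mouse a capture came from, so p-values measure the spread between captures, which may be technical.

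Of 367 cells, 292 were kept, with 27 to 73 per capture. Values are FPKM, in which the fragments of a gene are divided by its transcript length and by the depth of the cell. The files hold no counts, and the depth of a kept cell, estimated from the steps between its values, ran from 171092 to 7946598 fragments with a median of 1461912. A cell was called myeloid with Lyz2 of at least 500 FPKM and Cd68 of at least 50 FPKM, and stromal with Col1a1 of at least 1000 FPKM or Rgs5 of at least 500 FPKM, together with Lyz2 under 50 FPKM. None of the 8 genes entered these rules, although the rules read the RNA of the same cells. They gave 24 myeloid cells, 255 stromal cells and 13 cells of neither kind. Myeloid cells numbered 2, 10 and 1 in the captures of day 12. Day 15 gave 0 and 4, and day 21 gave 4 and 3.

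The myeloid label was checked against markers that the rule did not use. Of 12 macrophage or monocyte markers, 11 were above 0 in at least 12 of the 24 cells, and C1qa, C1qb, C1qc, Adgre1 and Laptm5 were above 0 in all of them. The exception was Cd14, which was above 0 in 8 cells. Of 7 neutrophil markers 6, S100a8, S100a9 and Ly6g among them, were listed at 0 in every myeloid cell, and Csf3r was above 0 in 20 cells at up to 164 FPKM. The mast cell markers Cpa3, Mcpt4, Tpsb2, Fcer1a and Ms4a2 and all 5 natural killer cell markers were at 0 throughout. Of 7 dendritic cell markers 2 were at 0 throughout, while Xcr1 was above 0 in 15 cells at up to 0.74 FPKM and Clec9a in 1 cell at 26.5 FPKM. Of the lymphocyte markers, Cd3e, Cd3g, Trac and Cd79a were at 0 throughout, while Lck stood at 99.2 FPKM in 1 cell, Cd79b was above 0 in 5 cells at up to 656 FPKM, and Ms4a1 in 9 at up to 1.30 FPKM. Their part in the results below was not tested. Tagln, the gene behind the Cre driver, was above 0 in 2 of the 24 myeloid cells and in 178 of the 255 stromal cells. Fibroblast genes were seen in myeloid cells too. Col1a1 and Col1a2 were above 0 in all 24, with medians of 12.9 and 3.12 FPKM. Col3a1 was above 0 in 22, Dcn in 20, Lum in 18 and Pdgfra in 4. In 3 myeloid cells Col1a1 reached 1000 FPKM, at 2047 FPKM in day 12 capture 2 and at 6923 and 10805 FPKM in day 15 capture 2. No doublet caller was run here, and these cells were kept unless stated otherwise. Per the paper's methods, the captures were viewed by microscopy and only singly caught cells were used.

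Activating immune receptors often have short tails of their own and borrow the ITAM of a small adaptor. TYROBP, also called DAP12, serves TREM2 and many lectin-like receptors, while the Fc receptor gamma chain FCER1G serves the activating Fc gamma receptors, which bind the constant part of IgG. Once Src-family kinases phosphorylate both tyrosines of the ITAM, SYK docks there and passes the signal on, and in macrophages this leads to phagocytosis and to the release of mediators. FCGR2B carries an inhibitory motif, the ITIM, in its own tail, which recruits phosphatases such as SHIP1 and sets the threshold for activation.

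The coding sequences of these motifs are shown because they are what divides the members into signal givers and an inhibitor. Each was found in the reference (GRCm38, GENCODE M21) on the gene's first annotated transcript, and capitals mark the codons of the tyrosines. The Tyrobp ITAM spans chr7:30415670-30417382 on the plus strand, across the junction of exons 4 and 5 of 5, and encodes residues 92 to 106 of 114. The Fcer1g ITAM spans chr1:171229889-171230072 on the minus strand, again across exons 4 and 5 of 5, and encodes residues 65 to 79 of 86. The Fcgr2b ITIM lies at chr1:170961071-170961088 on the minus strand, in exon 8 of 8, and encodes residues 317 to 322 of 340.
Tyrobp ITAM: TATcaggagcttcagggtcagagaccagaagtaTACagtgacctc
Fcer1g ITAM: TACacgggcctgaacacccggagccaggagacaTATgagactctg
Fcgr2b ITIM: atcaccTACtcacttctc

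Among these transcripts of the 8 genes the ITAM pattern was found once in Tyrobp, once in Fcer1g and in no other member. The shorter ITIM pattern is less specific. It matched once in Fcgr2b and once in each adaptor, 3 times in Fcgr1 and once in Fcgr4, and a match alone does not make a working motif.

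Of the 8 genes, 4 lie within 275.7 kb of chromosome 1 in the same build, in the order Fcgr2b (170958617 to 170976547), Fcgr4 (171018920 to 171029761), Fcgr3 (171051174 to 171064935) and Fcer1g (171229572 to 171234365). Tyrobp lies on chromosome 7, Fcgr1 on chromosome 3, Trem2 on chromosome 17 and Syk on chromosome 13. Fcgr2b and Fcgr3 share 166 windows of 50 bases in their transcripts, which is 4.5% of the windows of Fcgr2b and 10.2% of those of Fcgr3, so a small part of their reads could be assigned to either. Fcgr2b is also overlapped on the other strand by Gm38204, and the library kit did not mark strand.

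Promoters are shown for the receptors and for Fcer1g because their RNA was found mainly in myeloid cells. Fcgr2b was also above 0 in 67 of 255 stromal cells, and Fcgr1 and Fcgr4 were absent from many myeloid cells. RefSeq promoter windows (GRCm38.p6, 250 bases before to 50 bases after a start) were at hand for 7 of the 8 members, and each line below gives 60 bases before to 10 after one start. Capitals mark GAGGAA read on either strand (TTCCTC on the other), the core that the myeloid factor PU.1 is known to bind.
Fcgr1, chr3:96293960-96294029, minus strand: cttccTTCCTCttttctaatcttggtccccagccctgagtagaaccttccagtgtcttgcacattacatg
Fcgr3, chr1:171059394-171059463, minus strand: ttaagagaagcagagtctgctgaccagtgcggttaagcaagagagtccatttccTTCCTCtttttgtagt
Fcgr4, chr1:171018866-171018935, plus strand: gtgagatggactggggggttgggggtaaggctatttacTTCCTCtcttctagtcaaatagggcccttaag
Trem2, chr17:48346341-48346410, plus strand: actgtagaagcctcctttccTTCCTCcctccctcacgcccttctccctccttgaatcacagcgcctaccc
Fcer1g, chr1:171234340-171234409, minus strand: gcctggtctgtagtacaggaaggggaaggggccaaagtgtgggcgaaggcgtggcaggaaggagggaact
Fcgr2b, chr1:170976062-170976131, minus strand: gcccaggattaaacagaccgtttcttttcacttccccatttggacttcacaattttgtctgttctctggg

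Those 6 letters occur on either strand in 28.3% of all 32851 promoter windows, so single matches are common. The nearest match stood at -55 in Fcgr1, -6 in Fcgr3, -22 in Fcgr4 and -40 in Trem2, counted from the start, and at -9 from the second of the 2 listed Syk starts. Fcer1g, Fcgr2b and the first Syk start held none in the window.

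Both adaptors were present in every myeloid cell and were the highest of the 8 genes. Tyrobp ranged from 1343 to 8317 FPKM over the 24 myeloid cells with a median of 5081 FPKM, and Fcer1g from 1030 to 9164 FPKM with a median of 5304 FPKM. In stromal cells Tyrobp was above 0 in 9 of 255 cells and Fcer1g in 3, and no stromal cell held both. Under these rules the lowest myeloid value of either adaptor lay above the highest stromal value. The latter was 153 FPKM for Tyrobp and 17.6 FPKM for Fcer1g. This depends on the Lyz2 limit of the stromal rule. A cell of day 21 capture 1 with 6201 FPKM of Col1a1 was of neither kind, with Lyz2 at 735 FPKM. It held 1515 FPKM of Tyrobp and 1685 FPKM of Fcer1g, above the lowest myeloid value of each.

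**Figure D1:**
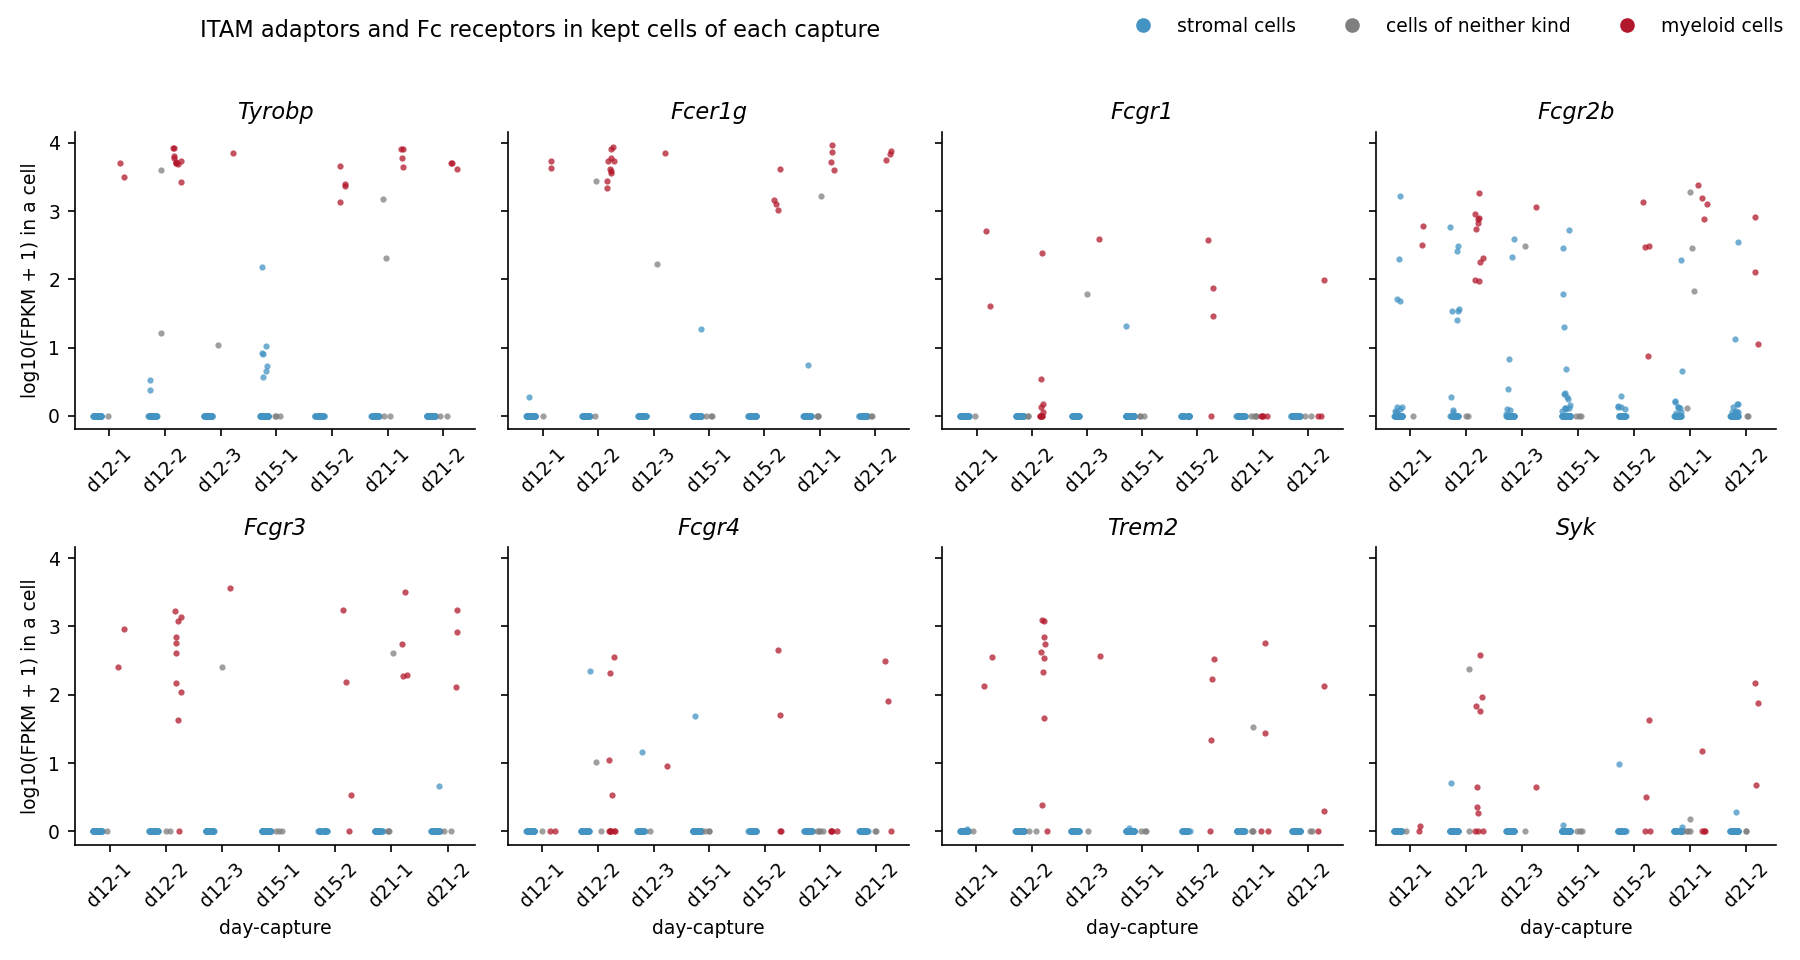
FPKM of each member in single kept cells, as log10(FPKM + 1) on the vertical axis, by day and capture (d12-1 is day 12, capture 1). Each point is a cell; red marks the 24 myeloid, blue the 255 stromal and grey the 13 cells of neither kind. Grey points aside, Tyrobp and Fcer1g separate the red from the blue points in every capture that holds red ones. Fcgr2b has blue points at up to 1668 FPKM.

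Capture means of Tyrobp in myeloid cells were 4118, 5747 and 7055 FPKM at day 12, 2705 FPKM in day 15 capture 2, and 6679 and 4705 FPKM at day 21. For Fcer1g they were 4852, 5002 and 7171 FPKM, then 1961 FPKM, then 6403 and 6709 FPKM. Day 15 capture 2 was the lowest for both adaptors, and 2 of its 4 myeloid cells are those with 6923 and 10805 FPKM of Col1a1. The part of that RNA in the low values was not tested.

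Neither adaptor was the higher throughout. The log2 ratio of Tyrobp to Fcer1g had a median of -0.03 and ran from -0.81 to 2.16 over the 24 cells, with Tyrobp the higher in 11 of them. Over the 6 capture means it ran from -0.51 to 0.46. Spearman's rho of the adaptors across the 24 cells was 0.37, and 0.12 over the 21 cells with Col1a1 under 1000 FPKM. These cells share captures and differ in depth, so the coefficients are descriptions.

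The activating receptors were less even. Fcgr3, a low-affinity IgG receptor, was above 0 in 22 of 24 myeloid cells, from 0 to 3682 FPKM with a median of 482 FPKM. Fcgr1, the high-affinity receptor, was above 0 in 12 cells, with a median of 0.08 FPKM and a highest value of 507 FPKM. Fcgr4, which binds IgG of the IgG2 classes, was above 0 in 9 cells and reached 457 FPKM. All 9 cells with Fcgr4 also held Fcgr3 and Syk, and 7 of them held Fcgr1.

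By capture, myeloid means of Fcgr3 were 587, 629 and 3682 FPKM at day 12, 482 FPKM at day 15, and 1035 and 902 FPKM at day 21. The mean of 3682 FPKM is that of the only myeloid cell of day 12 capture 3. Fcgr1 means were 273, 24.3 and 392 FPKM at day 12, 118 FPKM at day 15, and 0 and 32.7 FPKM at day 21. Fcgr4 means were 0, 57.9 and 8.01 FPKM, then 126 FPKM, then 0 and 131 FPKM. The captures of the days overlapped for each of these receptors.

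Fcgr2b, the inhibitory receptor, was above 0 in all 24 myeloid cells, from 6.66 to 2425 FPKM with a median of 645 FPKM. Capture means were 465, 614 and 1139 FPKM at day 12, 492 FPKM at day 15, and 1507 and 317 FPKM at day 21. Myeloid cells thus differed from each other in the weight of inhibitory against activating receptor RNA. The log2 ratio of Fcgr2b to the sum of Fcgr1, Fcgr3 and Fcgr4, each with 1 FPKM added, had a median of -0.20 and ran from -7.28 to 9.83, and Fcgr2b was the higher in 11 of 24 cells. The cell at 9.83 held 910 FPKM of Fcgr2b and none of the activating receptors, and it was among the shallower cells, at 232832 fragments. At the other end, a cell of day 21 capture 2 held 10.2 FPKM of Fcgr2b beside 1736 FPKM of activating receptors.

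Trem2, a lipid-sensing receptor that signals through TYROBP, was above 0 in 19 of 24 myeloid cells, from 0 to 1245 FPKM with a median of 154 FPKM. It was above 0 in 12 of 13 cells at day 12, in 3 of 4 at day 15 and in 4 of 7 at day 21. Tyrobp was present in the 5 cells without Trem2. Across the 24 cells Spearman's rho of Trem2 with Tyrobp was -0.11. Its capture means, 247, 474 and 364 FPKM at day 12, 132 FPKM at day 15, and 150 and 45.3 FPKM at day 21, were all higher at day 12 than later. Such separation was seen in 6.45% of all genes tested, and Trem2 was not called between days. Day 12 captures 1 and 3 held 2 and 1 myeloid cells.

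Syk, the kinase that docks on the phosphorylated ITAM, had the lowest mean over captures. It was above 0 in 15 of 24 myeloid cells, from 0 to 376 FPKM with a median of 1.74 FPKM. In a myeloid cell of median depth a single fragment of Syk is worth 0.0907 FPKM and one of Tyrobp 1.54 FPKM, since the longest Syk transcript has 5363 bp and that of Tyrobp 597 bp. A Syk fragment thus registers at a lower FPKM than one of Tyrobp, and the share of cells above 0 is not on the same footing for short and long transcripts. Spearman's rho of Syk with the estimated fragments of the cell was 0.44, the highest of the 8 members.

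**Figure D2:**
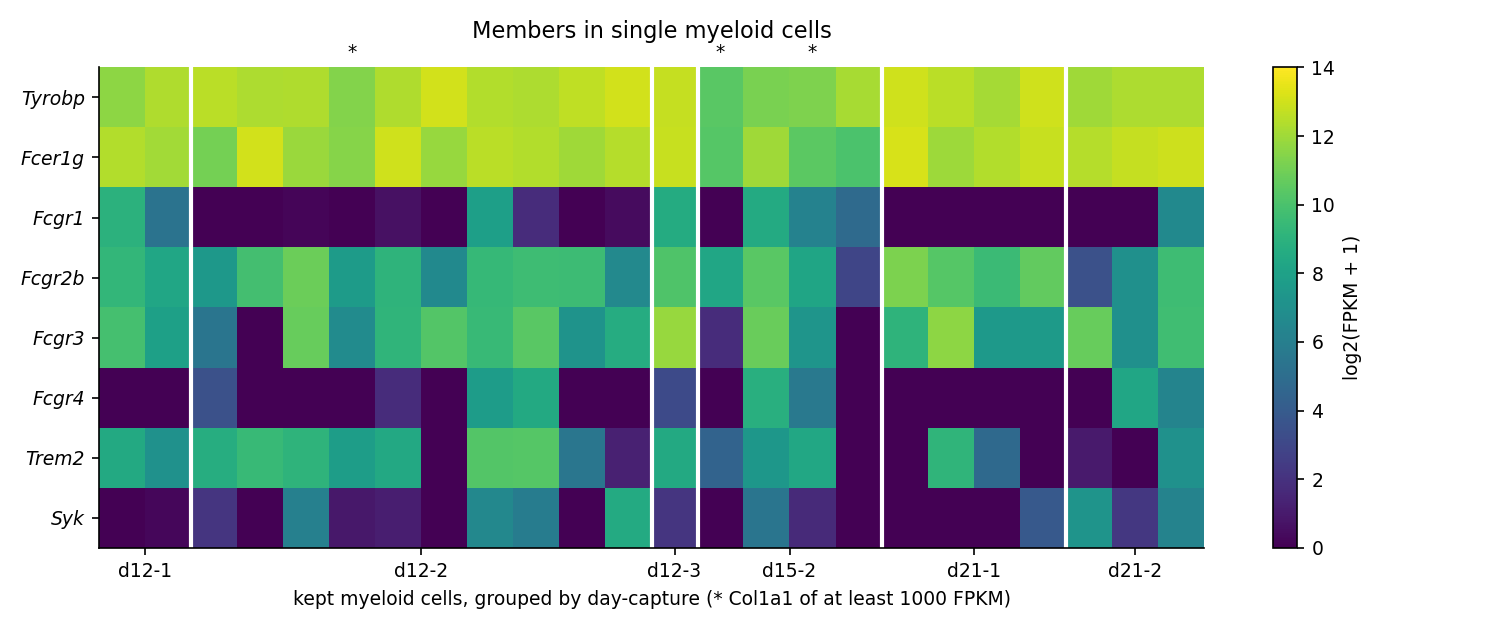
The 8 members (rows) in the 24 kept myeloid cells (columns), as log2(FPKM + 1), grouped by day and capture with white lines between captures. Asterisks mark the 3 cells with Col1a1 of at least 1000 FPKM. The top rows, Tyrobp and Fcer1g, are bright in all columns, Fcgr2b is above 0 in all of them, and Fcgr1, Fcgr4, Trem2 and Syk have dark cells at 0.

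Ranked by the mean of the 6 capture means, which are per length and so comparable between genes, the order was Fcer1g (5350 ± 1904 FPKM, SD, n = 6), Tyrobp (5168 ± 1647), Fcgr3 (1220 ± 1224), Fcgr2b (756 ± 464), Trem2 (235 ± 160), Fcgr1 (140 ± 159), Fcgr4 (53.9 ± 61.8) and Syk (25.7 ± 33.4). Of the 7 neighbouring pairs, 2 differed by more than the SD of their log2 difference between captures and in the same direction in 6 of 6 captures. Tyrobp exceeded Fcgr3 by 2.42 ± 0.78 (SD) on the log2 scale, and Fcgr2b exceeded Trem2 by 1.82 ± 1.11. The other neighbours, Fcer1g and Tyrobp among them, did not differ beyond their spread.

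A myeloid cell held 4 to 8 of the 8 members above 0, with a median of 6. All 8 were present in 7 cells, 7 in 4, 6 in 4, 5 in 5 and 4 in 4. The median was 7 over the 13 cells of day 12, of which 10 came from capture 2. It was 6.5 over the 4 of day 15, all from capture 2, and 5 over the 7 of day 21. These medians pool cells over captures and are no comparison of days. In stromal cells no member was above 0 in 176 of 255, 1 was in 69, 2 were in 8 and 3 in 2.

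Across the 24 myeloid cells the closest pairs of members were Fcgr4 and Syk (rho of 0.51), Fcgr1 and Fcgr4 (0.48) and Fcer1g and Fcgr2b (0.41). Without the 3 cells with Col1a1 of at least 1000 FPKM the values were 0.47, 0.41 and 0.29. Among 3941 genes above 0 in at least 12 of the 24 myeloid cells, those most like Tyrobp were Tgfbi (0.67), Nxpe5 (0.59), Itgb2 (0.58), Mocs2 (0.58) and Olfr718-ps1 (0.57). For Fcer1g they were Tob2 (0.79), the pseudogene Gm6472 (0.72), the mannose receptor gene Mrc1 (0.71), Prune2 (0.70) and Tpt1 (0.64). For Trem2 they were Cd84 (0.76), Prelid1 (0.72), Rbbp8 (0.70), Coa5 (0.69) and Iscu (0.68). No gene stood on more than one of these lists, and Fcer1g ranked 89th for Tyrobp. Without the 3 cells with Col1a1 of at least 1000 FPKM the Tyrobp list stood at 0.68, 0.42, 0.54, 0.49 and 0.43. The Fcer1g list then ran from 0.59 to 0.82 and the Trem2 list from 0.68 to 0.80. Medians were as low as 0.04 FPKM for Coa5, 0.155 for Rbbp8 and 0.70 for Nxpe5. These are the highest of 3941 coefficients over 24 cells, and how high they would run by chance was not tested.

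Myeloid and stromal cells were compared within the 4 captures that held at least 3 of each, both of day 21 and the second of day 12 and of day 15, with limma on log2(mean FPKM + 1) and the capture as a block. Of 13134 genes tested, 233 were higher in myeloid cells at an adjusted p under 0.05, which is 1.77%, and 1265 were lower. The median difference over all genes was -1.16. Of the 8 members 7 were called, all higher in myeloid cells. On their stromal means alone only Fcgr2b and Fcgr4 would have passed the filter of 1 FPKM, so the other 6 members entered through the group where they were high and had to differ, and their count and p-values are descriptions.

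**Figure D3:**
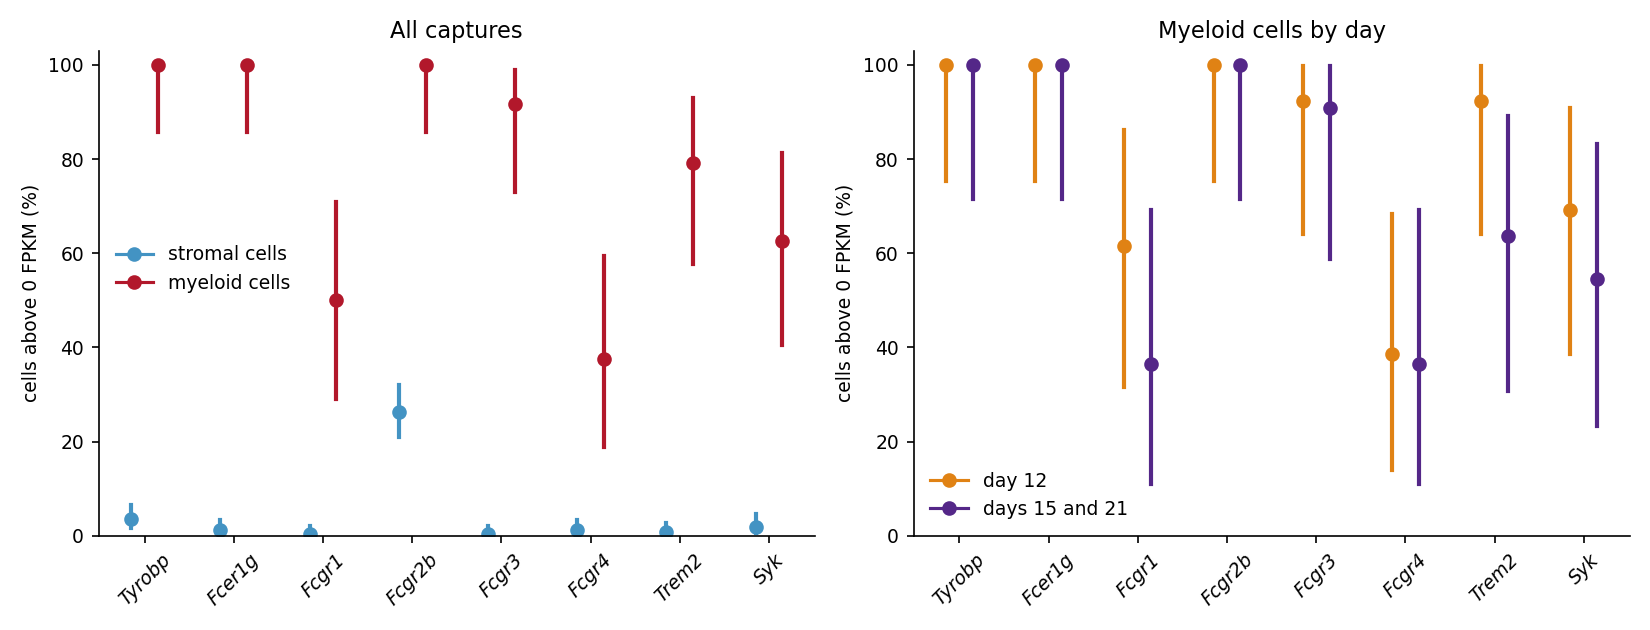
Share of cells with each member above 0 FPKM, in percent, with exact 95% binomial intervals as bars. The left panel sets 255 stromal cells (blue) beside 24 myeloid cells (red), and the right panel sets the 13 myeloid cells of day 12 (orange) beside the 11 of days 15 and 21 (purple). Fcgr2b is the only member above 5% in stromal cells, at 26.3%. The intervals of the days overlap for every member, but they cover counting error over cells and not the spread between captures. Of the 13 cells of day 12, 10 come from capture 2, so the panel is no comparison of days.

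In these captures, taken in order of day, Tyrobp averaged 5747, 2705, 6679 and 4705 FPKM in myeloid cells and 0.115, 0, 0 and 0 FPKM in stromal cells. The fitted log2 difference was 12.16 ± 0.92 (SE, n = 4 captures), with an adjusted p of 1.68e-04. Fcer1g averaged 5002, 1961, 6403 and 6709 FPKM against 0, 0, 0.177 and 0 FPKM, a difference of 12.09 ± 0.93 (adjusted p = 1.78e-04 by limma, 4 of 4 captures). With a stromal mean of 0 in 3 of the 4 captures, the sizes of these differences depend on the 1 FPKM that was added.

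Among the activating receptors, Fcgr3 averaged 629, 482, 1035 and 902 FPKM in myeloid cells against 0, 0, 0 and 0.105 FPKM in stromal cells (log2 difference 9.48 ± 1.03, adjusted p = 0.00168 by limma). Fcgr1 was listed at 0 in the stromal cells of all 4 captures and averaged 24.3, 118, 0 and 32.7 FPKM in the myeloid cells, so no fold is given. It was higher in 3 of 4 captures, and its call was the least stable, being lost in 9 of 16 alternatives. Fcgr4 averaged 57.9, 126, 0 and 131 FPKM against 6.73, 0, 0 and 0 FPKM, a difference of 4.24 ± 1.27 that missed the threshold (adjusted p = 0.0554 by limma).

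Trem2 was likewise listed at 0 in the stromal cells of the 4 captures, and its myeloid means were 474, 132, 150 and 45.3 FPKM. Syk averaged 60.1, 11, 3.54 and 76 FPKM in myeloid cells against 0.124, 0.38, 0.00577 and 0.0262 FPKM (log2 difference 4.32 ± 0.96, adjusted p = 0.0269 by limma). Fcgr2b averaged 614, 492, 1507 and 317 FPKM against 38.8, 0.101, 7.66 and 10.8 FPKM (6.24 ± 1.09, adjusted p = 0.0172 by limma). It was higher in myeloid cells in 4 of 4 captures, from 3.95 in day 12 capture 2 to 8.81 in day 15 capture 2. Without day 12 capture 2, which holds 10 of the 24 myeloid cells, only Tyrobp, Fcer1g and Fcgr3 remained called.

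**Figure D4:**
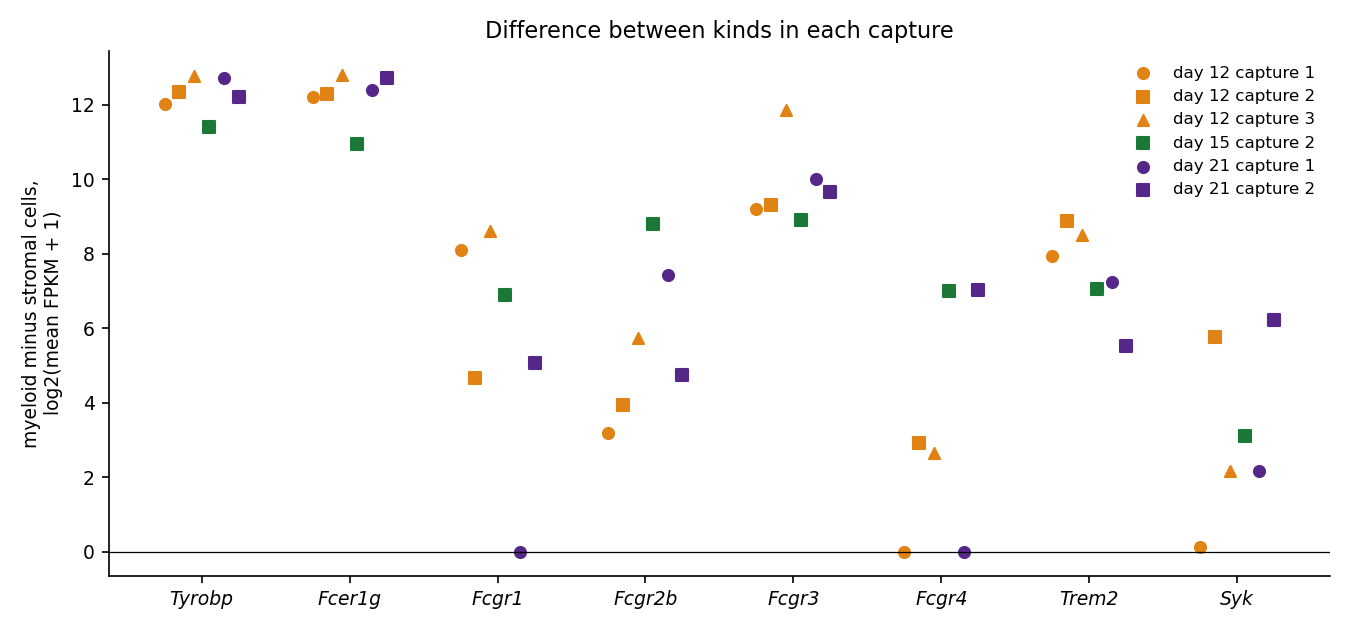
Myeloid minus stromal difference of each member in the 6 captures that hold myeloid cells, on the scale of log2(mean FPKM + 1). Colours mark the day and symbols the capture number. Tyrobp and Fcer1g lie between 10.94 and 12.81 in all 6 captures, while Fcgr1, Fcgr4 and Syk reach down to 0 or near it.

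Other genes of the same signalling system were counted in lists, against the 1.77% of all tested genes that were higher in myeloid cells. Of the 53 list genes tested, 17 would have passed the filter on their stromal means alone, and 3 of these were called higher, Itgb2, Lcp2 and Cd300a. The other 36 entered through their myeloid means, so the counts below are descriptions. Of 17 receptors that pair with either adaptor or carry an ITAM-like motif, 11 were tested, 4 were higher in myeloid cells and none was lower, with a median log2 difference of 3.47 against -1.16 for all genes. The most abundant was Clec4n, the fungal lectin receptor Dectin-2, which pairs with FCER1G (9.41 ± 1.07 SE, adjusted p = 0.00195 by limma). Clec5a, a TYROBP partner, had a difference of 4.19 ± 1.30 and did not pass (adjusted p = 0.0603). The integrin beta chain gene Itgb2 was higher by 4.21 ± 1.08 (adjusted p = 0.0373). Clec4d, the next in abundance, did not pass at 3.47 ± 1.3 (adjusted p = 0.102 by limma).

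Of 11 other Fc receptors, 3 were tested and 1 was higher, the Fc receptor-like gene Fcrls (8.48 ± 1.11, adjusted p = 0.00425 by limma). Fcgrt, the recycling receptor FcRn, had means over cells of 164 FPKM in myeloid and 148 FPKM in stromal cells, and a fitted difference of 0.36 ± 0.85 (adjusted p = 0.79). Trim21 did not pass at 3.13 ± 1.28 (adjusted p = 0.128 by limma). The high-affinity IgE receptor gene Fcer1a was listed at 0 in all 24 myeloid and all 255 stromal cells. Of 7 other adaptors, 2 were tested and Hcst, which encodes DAP10, was higher (6.04 ± 1.14, adjusted p = 0.0197). Cd79b did not pass at 2.94 ± 1.22 (adjusted p = 0.133 by limma).

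Of 22 kinases and mediators, 20 were tested, 4 were higher and 16 did not pass, with a median of 1.92. Rac2, a small GTPase of blood cells, was higher by 6.27 ± 0.99 (adjusted p = 0.0117 by limma). Vav1, the most abundant of this list, did not pass at 3.78 ± 1.34 (adjusted p = 0.0882 by limma). Grb2 did not pass at 1.91 ± 1.14 (adjusted p = 0.278). Lyn, a Src-family kinase that phosphorylates ITAMs, did not pass at 3.49 ± 1.29 (adjusted p = 0.0995). The others called were the scaffolds Blnk and Lcp2 and the lipid kinase subunit Pik3cg, from 3.59 to 4.90.

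Inhibitors formed the last list. Of 21 listed, 17 were tested, 9 were higher and 8 did not pass, with a median of 3.89. The lectin receptor gene Clec4a2 (9.12 ± 1.04, adjusted p = 0.00195 by limma) and the ITIM receptor genes Lilrb4a (7.56 ± 1.25, adjusted p = 0.0141) and Lilr4b (7.77 ± 1.11, adjusted p = 0.00654) were the most abundant. Sirpa, the next in abundance, did not pass at 3.43 ± 1.1 (adjusted p = 0.0662 by limma). Ptpn6 and Inpp5d, which encode the phosphatases SHP-1 and SHIP1 that ITIMs recruit, were higher by 7.30 ± 1.05 and 6.09 ± 1.24. No gene of these lists was called lower in myeloid cells.

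Between days, the myeloid cells of the 3 day 12 captures were compared with those of the 3 later captures. No member was called, and limma called 9 of 10148 genes, or 0.0887%, with 329 at an unadjusted p under 0.05. Trem2 was the only member whose captures did not overlap, with 247 FPKM as the lowest mean at day 12 against 150 FPKM as the highest later, and such separation was seen in 6.45% of all genes tested. Its difference of later minus day 12 was -1.84, with a 95% interval of -4.44 to 0.75 (adjusted p = 0.87 by limma). Fcgr1 had a difference of -3.14 with an interval of -6.82 to 0.55, and its captures overlapped. Without day 21 capture 1, where Fcgr1 was at 0, its difference was -1.14.

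Tyrobp and Fcer1g gave the narrowest intervals, from -0.99 to 0.34 around -0.32 and from -1.01 to 0.31 around -0.35. Fcgr2b ranged from -1.81 to 1.49, Fcgr3 from -1.96 to 0.90, Fcgr4 from -2.63 to 5.95 and Syk from -3.08 to 5.63. Changes of several fold in the receptors and in Syk were thus not detectable with these 24 cells, and 1 of the 6 captures held a single myeloid cell.

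The myeloid minus stromal difference was also compared between day 12 and later captures. Of 13383 genes, 0% were called by limma, with 589 at an unadjusted p under 0.05. Fcgr2b, the member with most stromal RNA, differed by 3.18, 3.95 and 5.74 between the kinds in the day 12 captures and by 8.81, 7.44 and 4.75 in the later ones, a change of 2.71 ± 1.46 (SE) with a lower 95% bound of -0.58 (adjusted p = 0.966 by limma). Fcgr4 changed by 2.82, with an interval of -1.79 to 7.44. Trem2 changed by -1.84, with an interval of -4.34 to 0.66, and again its captures did not overlap, as was the case for 9.52% of all genes.

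The share of kept cells with both adaptors was followed as a measure of how many cells of a capture carry the ITAM system. It was 4.76%, 24.4% and 6.25% at day 12, 0% and 14.8% at day 15, and 14.7% and 7.69% at day 21. Day 15 capture 1 had 0 of 73 cells, which allows 4.11% by a floor of 3 counts and 4.93% by the exact interval. Exact 95% intervals elsewhere reached from 0.582% to 39.5%. No difference between days was detected in an exact two-sided permutation test over 210 assignments of captures to days (p = 0.886, smallest possible 0.00476). The sort and the catch on the chip also set these shares, and fewer cells of a kind cannot be told apart from fewer caught.

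Of the 27 kept cells with both adaptors, 24 were myeloid, 3 were of neither kind and none was stromal. By a floor of 3 counts, the 0 of 255 stromal cells allows 1.18% under the stromal rule. Of those of neither kind, a cell of day 12 capture 3 and a cell of day 21 capture 1 exceeded 1000 FPKM of Col1a1. Their Lyz2, at 476 and 735 FPKM, kept them out of the stromal kind. Stromal cells held Tyrobp alone in 9 cells and Fcer1g alone in 3. Of the 9 cells with Tyrobp, 7 came from day 15 capture 1, the capture with no myeloid cell, at 2.77 to 153 FPKM. Only 1 of the 9, the cell at 153 FPKM, reached 10 FPKM. A single Tyrobp fragment is worth 2.39 FPKM in a stromal cell of median depth and up to 19.6 FPKM in the shallowest, so the other values are near the floor. Fcgr4 was above 0 in 3 stromal cells, at 222, 13.5 and 47.5 FPKM, without Tyrobp or Fcer1g in any of them.

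Fcgr2b was the exception among the 8 genes in stromal cells. It was above 0 in 67 of 255 (26.3%), and 20 of them (7.84%, exact 95% interval 4.86 to 11.9%) held at least 10 FPKM, a limit set after the values were seen. Those 20 cells held 12.2 to 1668 FPKM with a median of 197 FPKM, which corresponds to 49 to 13442 estimated fragments. The other 47 held 0.0579 to 23.2 estimated fragments with a median of 2.01, and values under 1 show that the estimate is rough. It rests on the longest Fcgr2b transcript, of 3544 bp, and an assumed fragment length of 300 bp. A shorter transcript would give fewer fragments. Estimates of fragments cover molecules that PCR has copied, so intervals cover counting error only.

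The levels of the matrix genes Col1a1, Dcn and Lum in these 20 cells had medians of 4846, 4638 and 2427 FPKM, beside 6211, 3597 and 2097 FPKM in the other 235 stromal cells. Col1a1 is part of the stromal rule. A cell of day 15 capture 1 with 536 FPKM of Fcgr2b stood apart, with 5829 FPKM of the mural cell gene Rgs5, 293 FPKM of Col1a1 and 15.1 FPKM of Dcn. Fcer1g, Ptprc (the pan-leukocyte gene CD45), Cd68 and the B cell gene Cd79a were at 0 in all 20, and so was Gm38204. By a floor of 3 counts, 0 of 20 allows 15%. These zeros do not set the 20 cells apart. In the other 235 stromal cells Ptprc, Cd79a and Gm38204 were also at 0, and Fcer1g was above 0 in 3 and Cd68 in 10. Another B cell gene, Ms4a1, was above 0 in 7 of the 20 at up to 2.58 FPKM, and in 60 of the other 235. Lyz2, which the stromal rule holds under 50 FPKM, was above 0 in 3 of the 20 at up to 2.39 FPKM. It was above 0 in 8 of the other 235. Tyrobp was above 0 in 1 of the 20, at 2.77 FPKM, and the same cell held 19.6 FPKM of Fcgr1. Fcgr4 was above 0 in 1 of the 20, at 47.5 FPKM in the cell with 536 FPKM of Fcgr2b. Syk was above 0 in 1, at 4.09 FPKM. Csf1r, which also had low values in 32 of the other 235 stromal cells, was above 0 in 5, at up to 32.2 FPKM. Rgs5 reached 500 FPKM in 3 of 20 and in 53 of the other 235. Median depth was 1409787 fragments in these cells and 1402209 in the other stromal cells, and median genes per cell were 6345 and 5659. The part of that difference was not tested.

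Such cells were found in 6 of 7 captures. Their share was 10.3%, 21.2% and 6.67% at day 12, 5.71% and 0% at day 15, and 3.85% and 5.88% at day 21. Each day 12 share lay above each later one, and how often other genes separate in this way was not counted. The lowest day 12 share, 6.67%, and the highest later one, 5.88%, had exact intervals of 0.818 to 22.1% and 0.72 to 19.7%. These intervals cover counting error over cells and not the spread between captures. For 0 of 23 cells in day 15 capture 2 a floor of 3 counts allows 13%, and the exact interval 14.8%. No test was run on these shares.

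**Figure D5:**
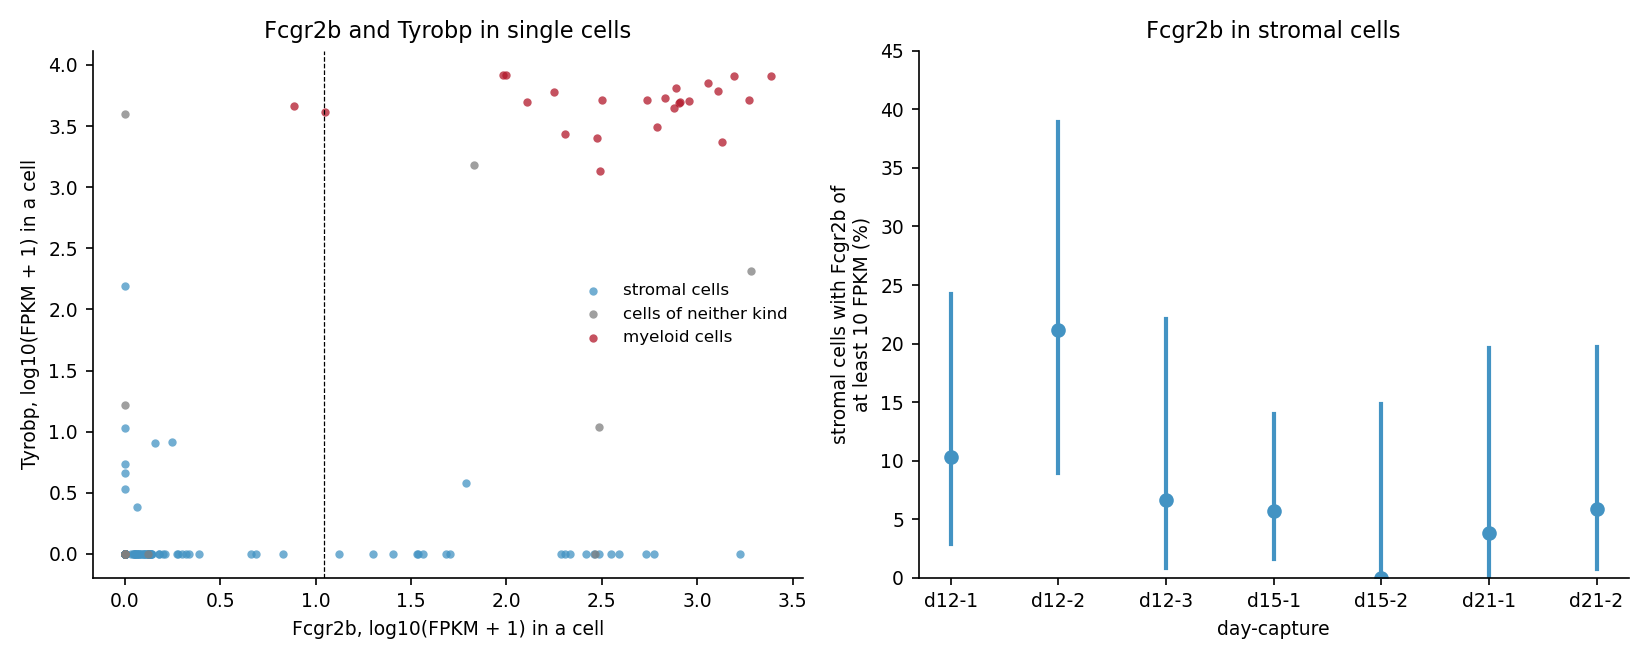
Left, Tyrobp against Fcgr2b in single kept cells, both as log10(FPKM + 1), with stromal cells in blue, cells of neither kind in grey and myeloid cells in red, and a dashed line at 10 FPKM of Fcgr2b. Right, share of stromal cells with Fcgr2b of at least 10 FPKM in each day-capture, in percent, with exact 95% binomial intervals as bars. The stromal cells right of the line lie at 0 of Tyrobp but for 1 cell at 2.77 FPKM, and the highest share is 21.2% in day 12 capture 2.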

How the data were processed

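Full-length RNA of 367 single tdTomato-high wound cells was analysed, in 7 captures. The deposited FPKM values were made by the authors with RSEM and Bowtie 1.0.0 on mm10, per the labels, without pooling of cells, and the unit was read from the values. Cells of the third day 12 capture were matched to their table by cell number, since their descriptions name the table of the second. GENCODE M21 held 50376 of the 50600 gene identifiers.
Fragments per cell were estimated from the value steps of 9426 single-transcript genes (at least 1000 bp, fragment length taken as 300 bp), a method checked on simulated cells. A cell was left out below 159000 fragments, above 11000 genes or above a mitochondrial share of 15% of its FPKM.
Class means per capture were compared with limma 3.58.1 (R 4.3.3, variance trend, pseudocount of 1, means of at least 1 FPKM, Benjamini-Hochberg threshold 0.05), tested on simulated data. Shares used an exact permutation test (Python 3.11.15, scipy 1.17.1). Correlations over cells are Spearman's rho. Detection means a value above 0. Intervals of shares are Clopper-Pearson at 95%, and a floor of 3 counts gives the limit for 0.
The members and lists were chosen with earlier results of these data known. Named genes are the members, up to 4 examples a list with the highest mean FPKM in myeloid cells, and the 5 genes most correlated with Tyrobp, Fcer1g and Trem2; cell markers, Fcer1a, and the called kinases, scaffolds and phosphatases beyond 4 were named after their values were seen. Count models and the droplet data of the study were not used here. Alternatives were the pseudocount, filters, scaling, kind limits, block, detection limits and each capture left out.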

Additional observations from a re-analysis of the deposited data

Results flagged for a closer look

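Signal of the 8 genes was also seen in kept cells outside both kinds, which enter no comparison. A cell of day 12 capture 2 held 3957 FPKM of Tyrobp and 2734 FPKM of Fcer1g with 1.49 FPKM of Lyz2, and its Cd74, the invariant chain of antigen presentation, stood at 34954 FPKM. A cell of day 21 capture 1 held 1515 FPKM of Tyrobp and 1685 FPKM of Fcer1g beside 6201 FPKM of Col1a1. In day 12 capture 3 a cell held 9.96 FPKM of Tyrobp and 167 FPKM of Fcer1g, with 476 FPKM of Lyz2 and 6394 FPKM of Col1a1. Fcgr2b reached 1908 FPKM in a cell of day 21 capture 1 with 207 FPKM of Tyrobp and no Fcer1g, and 292 FPKM in another cell of that capture with neither adaptor.

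Of the 7 myeloid cells that did not pass the cell filter, 6 held both Tyrobp and Fcer1g above 0. The seventh, with 29049 fragments, held neither. Sources of these values were not tested.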

How the results depend on the processing

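Tyrobp, Fcer1g and Fcgr3 kept their calls between myeloid and stromal cells in 16 of 16 alternatives, and each member kept its direction there. Calls were lost for Fcgr1 in 9, Syk in 5, Fcgr2b in 2 and Trem2 in 2, and Fcgr4 was called once, with captures of at least 1 cell of both kinds (adjusted p = 0.0295, range 0.0295 to 0.276, by limma). The 7 members called became 3 with no filter on low values and 3 to 6 with a capture left out, 3 without day 12 capture 2. Genes higher in myeloid cells (233) became 96 with a pseudocount of 10, 26 with no filter, and 34 to 165 with a capture left out, with 34 without day 12 capture 2, 119 without day 21 capture 1 and 112 without day 21 capture 2. Those higher and lower were 233 and 1265 in the report, 96 and 56 with a pseudocount of 10, 223 and 641 with the mean of logs, 186 and 461 with no cell filter and 26 and 0 with no filter on low values. With captures left out they were 34 and 0 without day 12 capture 2, 119 and 65 without day 21 capture 1 and 112 and 34 without day 21 capture 2. The median difference of all genes moved between -2.22 and -0.23, and the members were higher under each.

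Between days no member was called in any alternative. Genes called (9) became 0 with no filter on low values, 1 with the mean of logs, 0 with no variance trend, 0 with at least 2 and 1189 with at least 3 myeloid cells a capture, the latter leaving 1 capture at day 12, assumed to vary like the others, and 0 to 13 with a capture left out, 0 without day 12 capture 3. The change of later minus day 12 in myeloid cells turned sign with at least 2 cells for Fcgr2b (0.21) and Fcgr3 (0.33), with at least 3 for Fcgr2b (0.01), Fcgr3 (0.28), Fcgr4 (-1.20) and Syk (-1.92), and against day 21 alone for Tyrobp (0.03), Fcer1g (0.23) and Fcgr2b (0.01). In the change of the kind difference it turned for Tyrobp (0.04) with a pseudocount of 0.1, for Fcgr2b (-0.37) with the mean of logs, and with at least 3 cells of both kinds for Fcgr3 (0.24) and Syk (-1.92). With a capture left out, the myeloid change ran from -0.63 to 0.03 for Tyrobp, -0.66 to 0.23 for Fcer1g, -4.59 to -1.14 for Fcgr1, 0.15 to 4.0 for Fcgr4, -0.80 to 0.32 for Fcgr2b, -0.99 to 0.33 for Fcgr3 and -0.04 to 2.87 for Syk, and the change of the difference from -0.57 to 0.08 for Tyrobp, -0.76 to 0.13 for Fcer1g, -1.04 to 0.29 for Fcgr3 and -0.12 to 2.70 for Syk. The causes of these changes were not tested.

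Captures with the same number did not deviate together (correlations of -0.03 to 0.02), and the number was treated as a name only. With a block on the number, 0 genes were called between days, and Fcgr2b (0.36) and Fcgr3 (0.39) turned sign, as did Fcgr3 in the difference of kinds (0.35). Without the capture block between kinds, 7 members and 252 genes were called higher. The median members per myeloid cell was 5 at 10 FPKM. With the Lyz2 limit applied only beside Rgs5, Tyrobp was above 0 in 11 of 261 stromal cells and Fcer1g in 5. Cells with both adaptors were then among the stromal cells. The share of stromal cells with Fcgr2b was 4.31% at 100 FPKM and 5.86 to 8.65% with a capture left out, and it was chosen after seeing the data along with its alternatives.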
